A study of Caenorhabditis elegans with 6 samples.

Results

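The transcriptome of adult worms on control RNAi was described from 3 of the 6 RNA-seq libraries of the study, those whose titles give control RNAi. The worms were hermaphrodites of strain TJ1060, which carries mutations in a pair of fertility genes, fem-15(b26);spe-9(hc88), and they were made sterile by growth at 25°C until day 1 of adulthood. Each of 3 batches of about 10000 worms was then moved to empty vector RNAi bacteria for 3 days at 20°C, and polyadenylated RNA was taken from whole worms on day 4 of adulthood. The authors state that RNAi in adults was done on plates with fluorodeoxyuridine (FUDR), ampicillin and IPTG. Their account of the RNA-seq worms does not repeat this. All worms thus carried both mutations and fed on the empty vector bacteria, and no library of worms with normal fertility or on standard bacteria was compared. The other 3 libraries, from *unc-62* RNAi, were not used. Values are RPM, reads for every 1000000 uniquely mapped reads, of the transcript with the highest mean for each gene, and 17682 genes are listed. Libraries came from separate batches, so the spread between them holds biological and technical differences together. They shared 1 sequencing lane.

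In a worm of this age the larval stages have ended, and RNA of the whole animal comes from a small number of large tissues. The intestine makes yolk proteins (vitellogenins) and digestive enzymes, the epidermis makes the collagens of the cuticle, the body wall is lined with muscle, and the gonad of a hermaphrodite fills with oocytes. Ribosomal proteins are needed in large amounts wherever proteins are made. In 3′-end libraries a transcript gives reads from its end only, so RPM was not divided by the length of the gene. Levels of different genes are compared on the RPM scale. Ranks per kb of coding length are given only to show how far they depend on this choice.

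The 3 libraries held 15188765, 17100858 and 21463842 uniquely mapped reads in replicates 1, 2 and 3, and 1 read was worth 0.0658, 0.0585 and 0.0466 RPM. The kept transcripts held 96.0%, 96.9% and 97.5% of these reads. At least 1 read was found for 12473, 12471 and 12668 genes, and 10736 genes had a read in every library. A total of 3251 genes had no read in any of them, which at 3 reads allows levels of up to 0.198, 0.175 and 0.140 RPM, a limit that covers counting error only. At least 10 reads in every library were found for 6824 genes, 38.6% of those listed, and statements on the spread of single genes are limited to these.

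Transcript abundance was concentrated in few genes. In replicates 1, 2 and 3, 49, 48 and 42 genes made up 50% of the reads on kept transcripts and 372, 313 and 258 genes made up 90% of them. Of all uniquely mapped reads, the 10 most abundant genes held 16.1%, 16.4% and 18.5% (17.02% ± 1.30, SD, n = 3), and the 100 most abundant held 70.5%, 72.6% and 75.8% (73.0% ± 2.64, SD, n = 3). Replicate 3 had the highest share by both counts. Of the 10 leading genes of each library, 9 were among the leading 10 of all 3 libraries, and of the leading 100, 95 were.

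**Figure D1:**
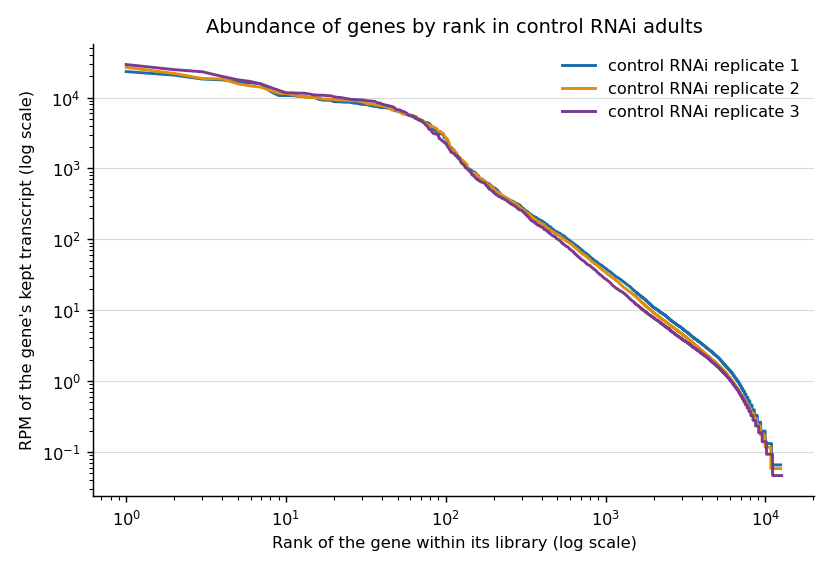
RPM of each gene (vertical axis, log scale) against its rank within its own library (horizontal axis, log scale), 1 line for each control RNAi library. The 3 lines run close together over the whole range, and the line of replicate 3 lies above the others among the leading genes, where its first 100 genes hold 75.8% of reads against 70.5% and 72.6%.

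When genes were placed in classes of mean RPM bounded by powers of 10, 16 genes reached 10000 RPM and held 23.1% ± 1.46 (SD, n = 3) of reads, and 123 genes between 1000 and 10000 RPM held 55.8% ± 1.25. These 139 genes thus held most of the reads, and 77 of them were genes of cytosolic ribosomal proteins. Below them, 410 genes between 100 and 1000 RPM held 11.8% ± 0.771, and 1403 genes between 10 and 100 RPM held 4.35% ± 0.692. A further 4501 genes between 1 and 10 RPM held 1.54% ± 0.247, and the 4307 genes between 0.1 and 1 RPM held 0.169% ± 0.0239. The 3671 genes under 0.1 RPM were seen through a few reads each. Genes without a symbol of their own, named only by their sequence, made up 61.8% of genes with no reads, 46.97% of genes between 0.1 and 1 RPM, 28.5% of genes between 100 and 1000 RPM and 6.50% of genes between 1000 and 10000 RPM, and none of the 16 genes above. A gene kept its class in every library for 10 of the 16 genes above 10000 RPM and for 103 of the 123 between 1000 and 10000 RPM. The same held for 983 of 1403 between 10 and 100 RPM, for 2265 of 4307 between 0.1 and 1 RPM and for 143 of 3671 under 0.1 RPM.

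Protein-coding genes held 96.4% ± 0.758 (SD, n = 3) of reads, as read from the gene types of a later annotation. Of 328 tRNA genes, 312 had no read. The ribosomal RNA gene *rrn-3.1* (F31C3.9) had 647, 1844 and 941 RPM in replicates 1, 2 and 3, so that replicate 2 held the most of this RNA. The microRNA gene *mir-354* was listed at 887, 661 and 718 RPM, and since the files hold no positions its reads cannot be assigned to the microRNA or to another transcript of the locus. Pseudogenes, 888 in number, held 0.0561% ± 0.00563.

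Cytosolic ribosomal proteins, the protein subunits of the ribosome, formed by far the largest family. Their 85 listed genes held 55.2%, 56.8% and 60.1% of reads in replicates 1, 2 and 3 (57.4% ± 2.51, SD, n = 3). They took 73 of the first 100 ranks and 26 of the first 30. The leading gene, *rps-25* (K02B2.5) of the small subunit, had 23224, 21844 and 29201 RPM (24756 ± 3911, SD, n = 3) and ranked first in replicates 1 and 3. *rpl-38* (C06B8.8) of the large subunit had 18226, 18568 and 23068 RPM and held rank 3 in each library. *rpl-10L* (F10B5.1) had 16104, 15579.7 and 24719 RPM, with replicate 3 far above replicates 1 and 2, which lay close together. *rps-9* had 15586, 13964 and 17794 RPM and *rpl-39* had 16532, 14595 and 15511 RPM. Their CVs, the SD over the mean, were 12.2% and 6.23%, against a median of 10.1% over the family. Next to them came *rpl-23* at 12525 ± 1224 RPM, *rps-24* at 11922 ± 1112 RPM, *rps-12* at 10872 ± 663 RPM and *rps-3* at 10633 ± 932 RPM (SD, n = 3 each). From *rps-16* at rank 12 to *rplp-0* at rank 30, means ran only from 10262 ± 1183 to 8485 ± 889.5 RPM, and the order within this stretch was not stable. *rps-2* stood between ranks 11 and 26 and *rps-23* between ranks 9 and 41 in single libraries.

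**Figure D2:**
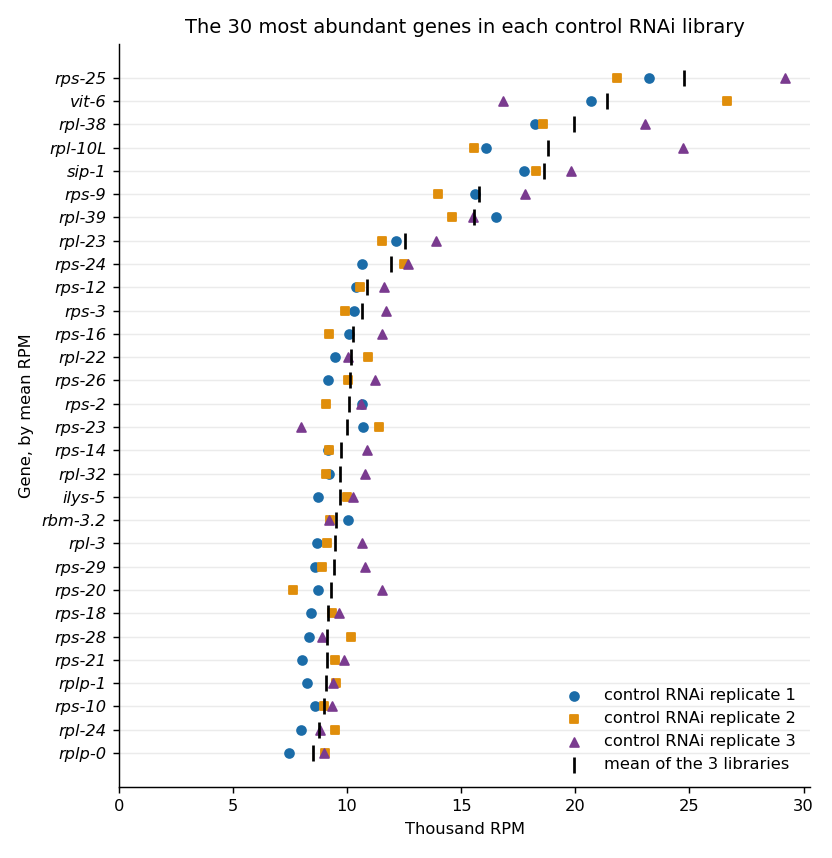
RPM divided by 1000 (horizontal axis, from 0) of the 30 genes with the highest mean, 1 row for each gene in order of its mean, with 1 point for each control RNAi library and a black tick for the mean. From *rpl-23* to *rplp-0* means run from 12525 ± 1224 to 8485 ± 889.5 RPM (SD, n = 3), the points of neighboring genes overlap, and *vit-6* and *rpl-10L* show the libraries farthest apart.

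The ribosomal protein genes were not made at 1 level. Within the family, 77 of 85 genes were above 1000 RPM, and the median over the 84 genes with at least 10 reads in every library was 6556 RPM. The lower members were partly those with a second copy. *rpl-41.1* had 512, 523 and 587 RPM and its copy *rpl-41.2* had 7042, 5825 and 974 RPM, and *rpl-37.2* at 602 ± 239 RPM stood below *rpl-37.1* at 2372 ± 165 RPM (SD, n = 3 each). Reads that match both copies of such a pair were dropped by the counting of unique matches, so these levels are uncertain. *rpl-42* had 1, 0 and 0 reads and was the only member under 10 reads in every library. The member of lowest CV by RPM was *rpl-13A* (3064, 3151 and 3077 RPM), but its reads equalled within 1% those of its neighbour *lias-1*, a gene of lipoic acid synthesis (3065, 3151 and 3077 RPM), in every library. The level of *lias-1* came from 1 of its transcripts and is uncertain for this reason. The same near equality was found for *bath-36* with *cyn-3* and for *K01G5.10* with *rnf-113*, which makes 3 of 2693 neighboring pairs compared, and 19 pairs were equal within 10%.

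Outside the ribosome, 4 genes stood among the first 30. *vit-6* (K07H8.6), a vitellogenin, had 20685, 26637 and 16837 RPM and ranked second (21386 ± 4938, SD, n = 3), with replicate 2 highest. *sip-1* (F43D9.4), a small heat shock protein of the alpha-crystallin family, had 17735, 18263 and 19822 RPM, and the highest library was 1.12-fold above the lowest, and it held rank 4 in each. *ilys-5* (F22A3.6), a lysozyme of the invertebrate type, had 8747, 10005 and 10259.9 RPM at rank 19. *rbm-3.2* (R09B3.3), which encodes an RNA-binding protein, had 10058, 9265 and 9201 RPM at rank 20. By RPM per kb of coding length *sip-1* ranked 7 and *rbm-3.2* ranked 8, while the long *vit-6* ranked 100 and *rpl-39* ranked first. The place of *vit-6* thus holds for RPM, which counts transcript ends, and not once RPM is divided by coding length. In 3′-end libraries that division lowers long genes and does not measure their amount of RNA.

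A further group of housekeeping genes followed. *cyn-7*, a cyclophilin, was at rank 38 with 7719, 7400.3 and 8497 RPM and took 76.5% of the reads of its family of 16. *hsp-90*, a cytosolic chaperone, was at rank 55 with 5382, 5713 and 6651 RPM. The initiation factor *iff-1*, a germline form of eIF5A, had 6075, 5425 and 5535 RPM, or 83.1% of the reads of all 34 initiation factor genes. Of the elongation factors, *eef-2* had 4541, 4177 and 5180.3 RPM and *eef-1A.1* had 4996, 3962 and 2362 RPM, with *eef-1A.1* lowest in replicate 3. *ndk-1*, a nucleoside diphosphate kinase, had 5064, 5488 and 5596 RPM, and *tba-2*, an alpha-tubulin, had 5141, 4723 and 6161 RPM. Each of these genes exceeded the summed level of the 31 proteasome subunit genes, which held 0.180% ± 0.0163 of reads (SD, n = 3) and were led by *pas-6* at 768 ± 53.9 RPM.

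Genes of energy metabolism were of middle abundance. The 64 nuclear genes of the respiratory chain and ATP synthase held 0.864%, 0.794% and 0.802% of reads, and 63 of them passed the read limit. They were led by *hpo-18*, a subunit of ATP synthase (1859, 1874 and 2117 RPM), and the cytochrome c oxidase subunits *cox-4* (865, 840.2 and 993 RPM) and *cox-5A* (711, 689 and 672 RPM). *cox-5A* had the lowest CV of RPM in this list, the SD over the mean, with 2.81%. In glycolysis and the TCA cycle the aldolase *aldo-2*, at 2508, 2602 and 2935 RPM, held 76.9% of the reads of 46 genes, and the next, the fumarase *fum-1*, had 173, 166 and 165 RPM. The median of the 44 genes of this list that passed the read limit was 6.32 RPM. Mitochondrial ribosomal proteins were far below their cytosolic counterparts, with 0.102% ± 0.0103 of reads (SD, n = 3) over 70 genes, a median of 3.62 RPM and *mrpl-38* leading at 208 ± 13.9 RPM.

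Yolk, eggshell and uterine genes were abundant. Vitellogenins are the yolk proteins that the intestine secretes and oocytes take up. The 6 genes held 3.54%, 4.66% and 2.84% of reads in replicates 1, 2 and 3 (3.68% ± 0.920, SD, n = 3), and *vit-6* held 58.1% of this. Of RPM per kb of coding length their share was 0.340%, and it was 6.06% when all transcripts of a gene were summed. *vit-2* had 6786, 8679.9 and 4994 RPM, *vit-4* had 4484, 6669 and 4253 RPM and *vit-3* had 2403, 3566 and 1772 RPM. *vit-5* had 784, 759.7 and 383 RPM and *vit-1* had 212, 312 and 156 RPM. With RPM, all 6 were lowest in replicate 3 and 5 were highest in replicate 2, whereas with TMM scaling, explained below, 4 were lowest in replicate 3 and all 6 were highest in replicate 2. Over all genes, 21% and 31.4% were highest in replicate 2 with RPM and with TMM, and 50.4% and 35.4% were lowest in replicate 3. *vit-3*, *vit-4* and *vit-5* are close copies of each other, so the split of reads among them is uncertain.

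Genes of the germline and of oocytes were present throughout. All 34 marker genes of these cells that were listed passed the read limit, and together they held 1.05%, 1.04% and 0.897% of reads. *perm-4*, which encodes an eggshell protein, had 4048, 4099.5 and 4090.1 RPM and the lowest CV, 0.676%, of the 549 genes with a mean of at least 100 RPM, whereas with TMM scaling its CV was 14.1%. *perm-2*, another eggshell gene, had 2685, 2892 and 2430.0 RPM. *cpg-1*, an eggshell chondroitin proteoglycan, had 707, 689.8 and 365 RPM and *cey-2*, a germline RNA-binding protein of the cold shock type, had 1323, 1155 and 642 RPM, both lowest in replicate 3. The P granule genes *pgl-1* and *pgl-3* had 375, 377 and 451 RPM and 348, 322 and 332 RPM. The marker of highest CV was *glh-1*, a germline RNA helicase of the Vasa type, at 128, 91.6 and 18.5 RPM. *rme-2*, the yolk receptor of oocytes, had 78.02, 79.5 and 61.1 RPM. Of the 5 *ule* genes, named for proteins found in the uterine lumen, *ule-1* had 2677, 2546 and 3078 RPM, *ule-3* had 1106, 1196 and 1129 RPM and *ule-5* had 1971, 1726 and 660.1 RPM, the last far lower in replicate 3 than in the others. In RNA of whole worms, fewer cells of a type and less RNA per cell cannot be told apart, here or in any family that follows.

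The labels were checked with markers of other stages and of males. Zygotic embryo genes were near 0, since 9 were listed and only *ceh-51* passed the read limit, with 14, 14 and 21 reads in replicates 1, 2 and 3. None of the 6 listed male genes passed it, and the highest, *cwp-4*, had 9, 6 and 4 reads. Of 12 genes of the larval moult 3 passed, the highest being *qua-1* at 3.16, 2.87 and 3.35 RPM. These markers go with the labels of adult hermaphrodites without developing embryos. Sperm genes were at low levels, as given below.

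Several genes of digestion and defence held places near the top. RNA of whole worms does not show how much of their reads came from the intestine. *cpr-1*, a cathepsin B-like protease, had 3491, 3323 and 4447 RPM, *cpr-4* had 1116, 1009 and 1079 RPM and the cathepsin L gene *cpl-1* had 615, 579 and 549 RPM. The cathepsin D-like *asp-3* had 1007, 876 and 233 RPM and *asp-1* had 467, 469.5 and 199 RPM. The cysteine proteases together held 0.672% ± 0.0500 of reads (SD, n = 3), and after TMM scaling their sums were 0.570%, 0.653% and 0.810%, lowest in replicate 1. The 16 aspartyl protease genes held 0.174%, 0.155% and 0.0612% of reads, with replicate 3 low, as it was with TMM (0.148%, 0.162% and 0.0685%). Among saposin-like genes, *spp-14* had 3082, 2604 and 2166 RPM, *spp-8* had 265, 257 and 268 RPM and *spp-1* had 815, 649 and 251 RPM. *spp-1* shared the low level in replicate 3, and *spp-8* did not. Among lysozymes, *ilys-5* held 96.4% of the reads of 16 genes, and *lys-7* followed with 185, 75.6 and 90.1 RPM, highest in replicate 1. The metallothioneins, metal-binding proteins of the intestine, were led by *mtl-2* with 4368, 3711 and 3507 RPM and *mtl-1* with 983, 621 and 993 RPM. C-type lectins, a family of 177 listed genes, had 34 past the read limit and were led by *clec-85* (1217, 854 and 1137 RPM) and *clec-50* (848, 692 and 628 RPM). Intestinal transcription factors were low, with *elt-2* at 0.988, 1.99 and 0.792 RPM and *elt-7* at 0.988, 1.34 and 1.30 RPM. Of 23 intestine markers listed, 15 passed the read limit, with a median of 15.3 RPM. Of the 23, only 2 had a mean of at least 1000 RPM, 6 of at least 100 RPM and 8 of at least 10 RPM. The genes named above are thus the high end of that list and not typical of it.

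Muscle genes were of low to middle abundance, with 23 of 25 body wall muscle markers past the read limit and the whole list at 0.0801%, 0.131% and 0.0678% of reads. *pat-10*, troponin C of the body wall, had 259, 355 and 172 RPM, *unc-27*, troponin I, had 135, 414 and 129.7 RPM and the myosin light chain gene *mlc-2* had 198, 265 and 216 RPM. The myosin heavy chain gene *unc-54* had 18.6, 25.8 and 13.5 RPM. The 5 actin genes held 0.0223% ± 0.00386 of reads (SD, n = 3) and were led by *act-2* at 158, 101 and 115.4 RPM, with their coding sequences nearly the same and their levels uncertain. Tubulins held 0.948% ± 0.0659.

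Cuticle collagens made up a broad family. Of 158 listed *col* genes, 79 passed the read limit and 16 had a mean of at least 100 RPM, and together the genes held 0.768%, 1.41% and 0.989% of reads. *col-106* had 1199, 1704 and 1665 RPM, *col-181* had 1126, 1841 and 1485 RPM, *col-184* had 1050.2, 1449.9 and 1409 RPM and *col-122* had 929, 1669 and 1146 RPM. The adult collagen *col-19* had 307, 646 and 402 RPM. The collagens of other names, which shape the body and form furrows and struts of the cuticle in larvae and adults, were low. Their 20 listed genes held 0.0103% ± 0.00408 of reads (SD, n = 3), led by *dpy-17* at 19.2, 17.5 and 21.2 RPM. The epidermal peptide genes *nlp-27* (1367, 1426 and 1628 RPM) and *nlp-29* (156, 192 and 191 RPM) were among the higher genes of the epidermis, and *nlp-27* held 55.3% of the reads of the 101 *flp* and *nlp* genes.

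Many large families had few genes past the read limit at this depth. Chemoreceptors, receptors of sensory neurons, had 303 genes listed, of which 191 had no read, 4 passed the read limit and *sra-14* alone (38.6, 35.03 and 43.7 RPM) held 72.7% of the reads of the family. Of 320 F-box *fbx* genes, 17 passed the read limit, with *fbxc-45* (71.2, 61.7 and 82.05 RPM) leading. Of 206 nuclear hormone receptor genes, 15 passed and *nhr-80* was highest at 10.3, 11.3 and 12.3 RPM. Of 73 cytochrome P450 genes 10 passed, led by *cyp-37A1* at 28.3, 14.4 and 22.2 RPM, and of 61 UDP-glucuronosyltransferase genes 4 passed. Of 28 neuron markers listed, 8 passed the read limit, led by *egl-21*, which encodes a carboxypeptidase of neuropeptide processing (22.5, 24.03 and 8.99 RPM). No marker of coelomocytes or of the excretory cell passed. Of 72 histone genes 38 had no read, and the histone H3.3 genes *his-74* (224, 177 and 95.8 RPM) and *his-72* (153, 178 and 100.4 RPM) were the highest in that family. Many histone genes are close copies, and the mRNAs of replication-dependent histones of animals commonly lack a poly(A) tail, so a histone gene with no read among unique matches of polyadenylated RNA cannot be called silent.

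**Figure D3:**
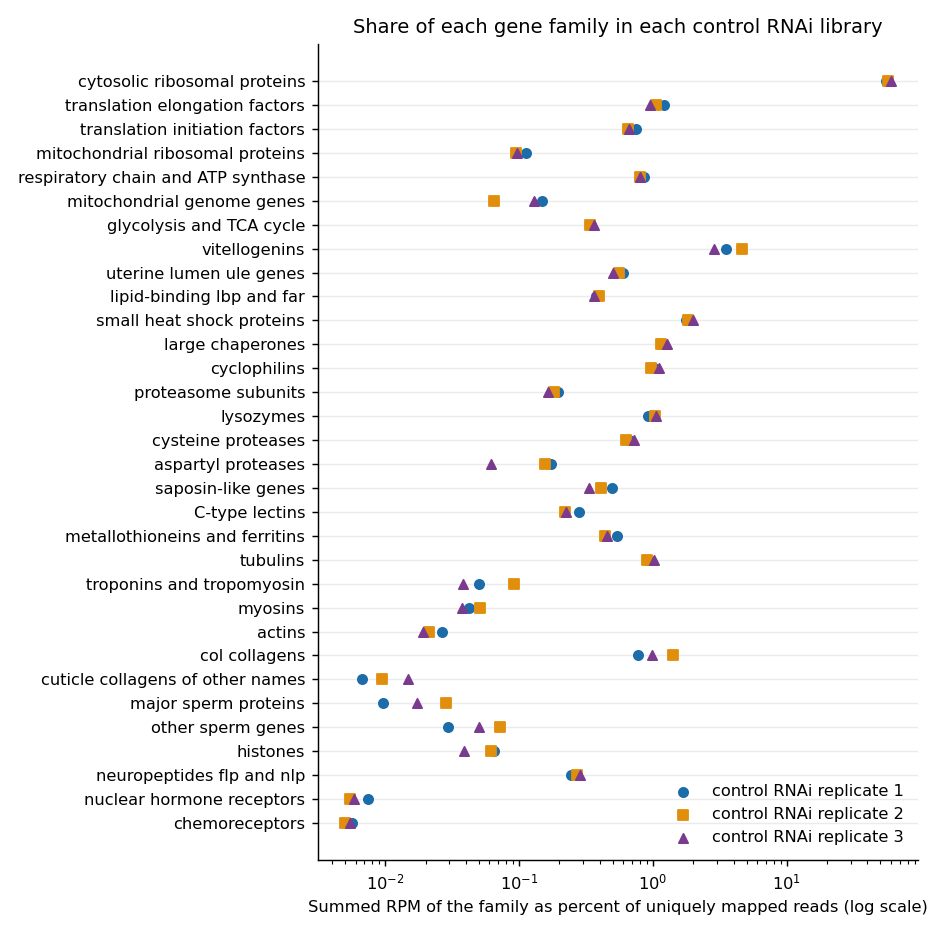
Summed RPM of each family as percent of uniquely mapped reads (horizontal axis, log scale), 1 row for each family, with 1 point for each control RNAi library. Ribosomal proteins lie between 55.2% and 60.1%, vitellogenins between 2.84% and 4.66% and chemoreceptors between 0.00502% and 0.00566%, and the point of replicate 2 stands apart for mitochondrial genome genes and troponins, that of replicate 3 for aspartyl proteases.

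These shares are of transcript ends and of 1 transcript for each gene. Per kb of coding length, 30 of 59 lists held a share more than 1.5 times lower and 5 one more than 1.5 times higher. With all transcripts of a gene summed, where reads common to isoforms count more than once, 23 were higher by more than 1.5 times.

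The spread between the libraries was then measured. For each of the 6824 genes the CV of RPM over the 3 libraries was set beside the CV that counting reads alone gives, the reciprocal of the square root of the mean reads. The median CV was 26.1%, against 12.2% from counting, and 5788 genes (84.8%) had a CV above the one from counting. The share of genes that counting alone would place there was not worked out. These CVs of RPM also hold the shift between whole libraries that is given below with TMM scaling. A CV above 50% was found for 874 genes and one below 10% for 747. By class, the median CV was 23.95% between 0.1 and 1 RPM, where counting gives 25.8%. Only 484 of the 4307 genes of that class passed the read limit, which drops genes with a low library and so lowers this value. Between 1 and 10 RPM the median CV was 28.4%, where counting gives 14.4%. It was 25.2% between 10 and 100 RPM, 14.2% between 100 and 1000 RPM, 9.63% between 1000 and 10000 RPM and 9.94% above. Counting gives 5.02%, 1.65%, 0.373% and 0.213% in these 4 classes, so for abundant genes depth did not limit the values. Pairs of libraries had correlations of log2 RPM across genes of 0.968 (replicates 1 and 2), 0.960 (1 and 3) and 0.962 (2 and 3), a description across genes that share libraries and are not independent. Within 2-fold of each other were 84.8%, 80.7% and 87.2% of genes in these pairs. The chi-square of the reads per degree of freedom was 39.3, 106 and 116, so no library was a repeat of another. The biological coefficient of variation from edgeR, an estimate of spread beyond counting error made on TMM-scaled reads, was 30.6% over all genes. Its trend had medians of 35.6% between 10 and 100 RPM and 26.5% above 10000 RPM. It is a smoothed fit across genes and uses another scaling, so it cannot be set beside the CVs of RPM above.

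**Figure D4:**
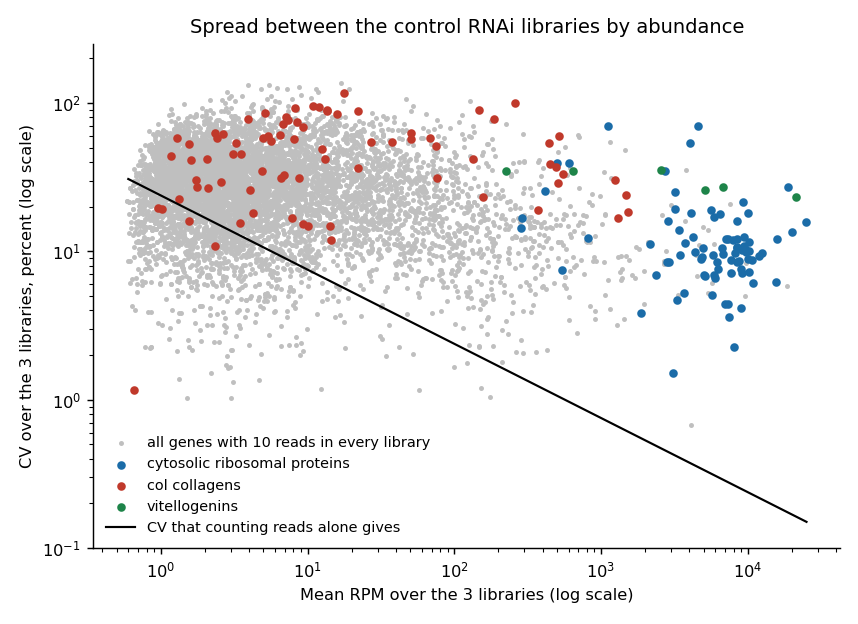
CV of RPM over the 3 control RNAi libraries in percent (vertical axis, log scale) against mean RPM (horizontal axis, log scale) for the 6824 genes, with ribosomal protein, *col* collagen and vitellogenin genes in color and a black line for the CV that counting reads alone gives. The points lie over the line for abundant genes, with a median CV of 12.3% at 100 RPM or more against 1.35% from counting, ribosomal protein genes group around 10%, and *col* genes reach 116%.

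Scaling mattered for comparisons between libraries. Of the 6824 genes, 63.5% had their highest RPM in replicate 1, while 21% had it in replicate 2 and 15.5% in replicate 3. The median log2 ratio of RPM was 0.31 for replicate 1 over replicate 2 and 0.41 for replicate 1 over replicate 3. TMM scaling, which centers the bulk of genes, divided RPM by 1.17, 0.956 and 0.894 and gave 35.1%, 31.4% and 33.5%. Directions below were therefore taken with both scalings.

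**Figure D5:**
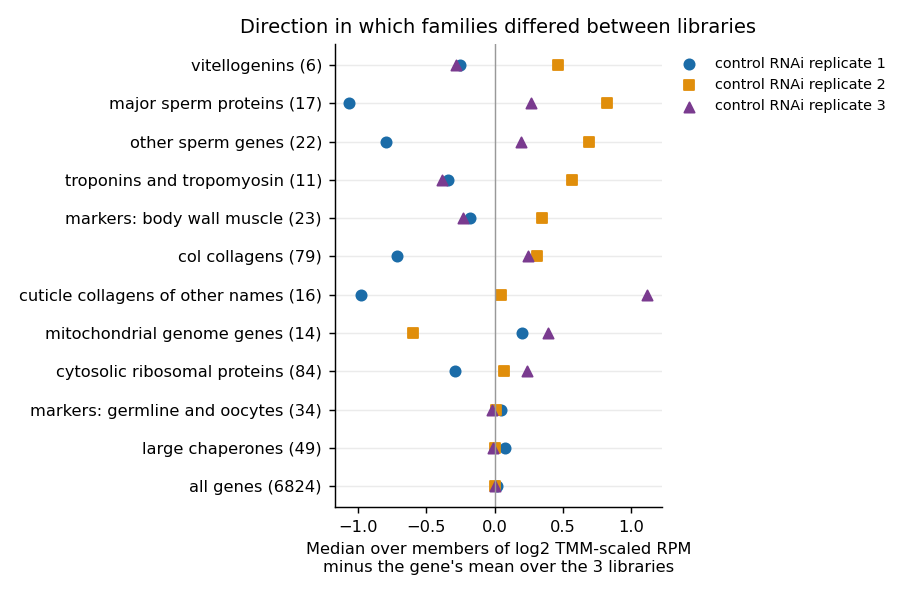
Median over the members of a family of log2 TMM-scaled RPM minus the gene's mean over the 3 libraries (horizontal axis), 1 row for each family with the number of genes past the read limit in parentheses and all genes last, and 1 point for each control RNAi library. All genes, germline markers and large chaperones lie near 0 in each library, sperm genes and collagens are low in replicate 1, vitellogenins, sperm genes, troponins and body wall muscle markers are high in replicate 2, and mitochondrial genome genes are low in replicate 2.

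Sperm genes differed between the libraries in 1 direction for most members. Major sperm proteins form the cytoskeleton of nematode sperm, and 35 genes were listed. Many are close copies, so the split of reads among them is uncertain. They held 0.00970%, 0.0283% and 0.0172% of reads in replicates 1, 2 and 3, a low level. All 17 genes past the read limit were highest in replicate 2 with RPM, where 21% of all genes were, and again all 17 with TMM, where 31.4% were. Of them 15 were lowest in replicate 1 with both scalings, against 11.8% of all genes with RPM and 31% with TMM. *msp-64* had 13.6, 34.8 and 22.5 RPM and *msp-78* had 10.1, 33.7 and 20.8 RPM. Other sperm genes behaved alike, since 19 of 22 were highest in replicate 2 with RPM and 17 of 22 with TMM. *nspd-2* had 40.03, 128 and 76.3 RPM and was highest in replicate 2 with both scalings. *ssq-1* had 45.03, 87.7 and 83.1 RPM and was highest in replicate 2 with RPM but in replicate 3, by little, with TMM.

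Troponin and tropomyosin genes, which regulate the thin filament, were highest in replicate 2 in 9 of 11 cases with either scaling, against 21% of all genes with RPM and 31.4% with TMM. Other muscle genes were divided. Of the 23 body wall muscle markers past the read limit, some of which are also in the other muscle lists, 13 were highest in replicate 2 and 9 in replicate 1 with RPM, and 16 and 5 with TMM. Of 17 myosin and paramyosin genes, 10 were highest in replicate 1 and 7 in replicate 2 with RPM, against 4 and 12 with TMM, and of the 5 actin genes 3 were highest in replicate 1 with RPM and 3 in replicate 2 with TMM. *unc-27* was 3.07-fold above the nearest other library. *unc-15*, paramyosin, had 5.004, 43.2 and 2.28 RPM, the widest spread of the myosin and paramyosin genes, and *mup-2*, troponin T, had 13.6, 36.3 and 14.1 RPM. Some muscle genes had RPM close together in the 3 libraries, such as the troponin I gene *tni-4* at 1.32, 1.52 and 1.44 RPM and *mlc-3* at 74.7, 70.2 and 65.6 RPM. This was read from RPM alone. The 5 pharynx markers that passed the read limit were low, with *tnt-4* at 5.99, 8.48 and 3.77 RPM.

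The *col* genes differed in which library was highest. Of the 79 past the read limit, 35 were highest in replicate 2, 36 in replicate 3 and 8 in replicate 1 with RPM, where 21%, 15.5% and 63.5% of all genes were. With TMM these were 32, 42 and 5, where 31.4%, 33.5% and 35.1% of all genes were. All 16 *col* genes with a mean of at least 100 RPM were highest in replicate 2 with RPM, and 14 of them with TMM, while 14 were lowest in replicate 1 with RPM and 16 with TMM. Among them, *col-20* had 117, 553 and 102 RPM, *col-80* had 74.2, 302 and 68.6 RPM and *col-124* had 97.4, 354 and 109 RPM, with replicate 2 alone high. The limit of 100 RPM is on the mean, so a gene such as *col-80* reached it only through replicate 2. *col-140* had 314, 875 and 364 RPM. Replicate 3 was highest and replicate 1 lowest for 30 of the 79 with RPM and 36 with TMM, against 5.29% and 16.7% of all genes, among them genes of lower level such as *col-49* (2.83, 7.25 and 22.6 RPM), *col-175* (2.50, 8.95 and 24.4 RPM) and *col-138* (3.42, 10.2 and 27.3 RPM). Of the 16 collagens of other names past the read limit, 10 had this order with RPM and 11 with TMM, and 12 and 13 were highest in replicate 3. *dpy-5* had 5.86, 14.7 and 26.4 RPM, *dpy-13* had 5.27, 13.6 and 26.6 RPM and *bli-2* had 0.922, 1.05 and 4.10 RPM, while *dpy-17* had a CV of 9.53% and *dpy-14* at 15.5, 15.9 and 8.81 RPM was lowest in replicate 3.

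Transcripts of the mitochondrial genome showed an inverse pattern. Of 32 listed genes, tRNA and rRNA genes included, 14 passed the read limit, and all 14 were lowest in replicate 2 with both scalings, against 37.9% of all genes with RPM and 33.6% with TMM. *MTCE.25* had 344, 148 and 334 RPM and *MTCE.26* had 316, 137 and 299 RPM. The cytochrome c oxidase gene *COX3* had 198, 83.6 and 136 RPM and the NADH dehydrogenase gene *ND6* had 132, 59.6 and 117 RPM. The nuclear genes of the respiratory chain did not share this, with a median deviation of 0.01 on the log2 scale after TMM in replicate 2, against -0.60 for the mitochondrial genome. These libraries are of polyadenylated RNA and mitochondrial genes were read only as far as that RNA carries them.

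Ribosomal protein genes were highest in replicate 3 in 45 of 84 cases with RPM and in 52 with TMM, where 15.5% and 33.5% of all genes were. With RPM 41 of 84 were lowest in replicate 1 and with TMM 70, where 11.8% and 31% of all genes were. A few went the other way by a wide margin. *rpl-41.2*, *rpl-27* (5579.6, 5011 and 1559.9 RPM) and *rps-17* (1236, 1831 and 289 RPM) were lower in replicate 3 than in the nearest other library by 5.98-fold, 3.21-fold and 4.27-fold. After TMM scaling the sums of the whole family were 47.2%, 59.4% and 67.3% in replicates 1, 2 and 3. By RPM they were 55.2%, 56.8% and 60.1%, which lie closer together.

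Single genes that stood apart from both other libraries by at least 2-fold were counted among the 1952 genes with a mean of at least 10 RPM. In replicate 3, 182 genes (9.32%) were lower and 8 (0.41%) were higher than in both others. In replicate 2, 43 genes (2.2%) were higher and 8 (0.41%) lower, and in replicate 1, 35 (1.79%) were higher and 28 (1.43%) lower. With TMM, 127 of the 182 genes stayed lower in replicate 3, all 43 stayed higher in replicate 2 and 7 of the 35 stayed higher in replicate 1. The 182 genes were of many kinds. Besides the ribosomal genes above they held *asp-3*, *asp-1*, *spp-1*, *ule-5*, the adenine nucleotide carrier *ant-1.1* (982, 899 and 207 RPM), the fatty acid and retinol binding gene *far-2* (535, 740.5 and 261 RPM) and *gln-6*, of the glutamine synthetase family (237, 243 and 61.7 RPM). With TMM, *asp-1* and *far-2* were still lowest in replicate 3 but by less than 2-fold, so they did not stay in the group. Of the 36 *col* genes in this range 11 were higher in replicate 2, where 2.2% of all genes were, and 5 in replicate 3, where 0.41% were. The limit is on the mean, so a gene such as *col-49* reached it only through the library where it was high. The limit thus favors genes that are higher in a single library, and these counts are no independent support for a difference. The mitochondrial chaperone *hsp-60* (27.5, 111 and 19.5 RPM) was higher in replicate 2 alone, and *ttr-15*, a transthyretin-related gene, was 5.18-fold above the nearest other library in replicate 1, with 282, 54.4 and 48.8 RPM.

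Which genes had the lowest CV depended on the scaling. With RPM, *perm-4* was followed by *F59C12.4* (177, 173 and 175 RPM), *pmlr-1* (149.8, 153 and 153 RPM), *lias-1* with *rpl-13A*, *Y94H6A.3* (102, 98.5 and 99.8 RPM), *dod-3* (124, 122.5 and 120.0 RPM), the Integrator subunit gene *ints-13* (207, 209 and 214 RPM), *rnp-5* (296, 295 and 285 RPM) and *Y52B11A.8* (368, 367 and 354 RPM). Their CVs lay between 0.676% and 2.08%, and those of *F59C12.4*, *pmlr-1*, *Y94H6A.3* and *dod-3* were below what counting gives. They are the extremes of 549 genes ranked on 3 libraries. With TMM their CVs, that of *perm-4* included, were 11.97% to 15.1%, none of these 10 genes was among the 10 of lowest CV, and *mai-2* (0.586%), *aly-3* (0.837%) and *rpl-29* (0.862%) came first. Of the 10 genes of highest CV, 8 were shared by both scalings. At that end, with RPM, after *ttr-15* and the collagens *col-20*, *col-80* and *col-124*, stood *C53H9.3* (188, 140.3 and 8.25 RPM), *C17F4.7* (317, 167 and 50.2 RPM), *Y39A3CL.3* (166, 141 and 16.8 RPM), *unc-27*, *Y75B12B.1* (203, 173 and 27.02 RPM) and *rpl-41.2*. Of these, *C53H9.3*, *Y39A3CL.3*, *Y75B12B.1* and *rpl-41.2* were low in replicate 3 only.

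Whether the separate batches of worms, their age, or the preparation and sequencing of each library gave these differences was not tested, and with 1 library for each batch these cannot be told apart.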

How the data were processed

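3′-end enriched RNA-seq libraries of polyadenylated RNA were analyzed for 3 samples titled control RNAi. The authors mapped reads of 36 bases with Bowtie 0.12.7 (CASAVA 1.7.0 base calls, per the submitters' processing notes) to release WS215 of the worm genome and its transcripts, and kept unique matches to the sense strand. They deposited a signal, RPM scaled to uniquely mapped reads, for 25531 transcripts. The deposited signal sums to more than 1000000 over transcripts, because isoforms of a gene share reads. Whole reads were recovered from the number of uniquely mapped reads for 100% of 76593 control values, to a tolerance of 0.01, and these counts served for read limits and spread. Identifiers of 2 features name no gene and hold 0 reads.

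For each gene, named by its sequence without the isoform letter, the transcript of highest mean RPM over the 3 libraries was kept. Of 17682 genes, 16959 were named by a RefSeq table of assembly WBcel235, 377 by Ensembl release 115 alone, and 346 by neither. No coordinates of these were used. With 1 group there was no comparison of conditions and no test. Spread was given as the CV, and as the biological coefficient of variation of edgeR 4.0.16 (R 4.3.3, limma 3.58.1, TMM, intercept only), tested on simulated data first. DESeq2 1.42.0 gave other size factors. Other steps used Python 3.11.15, numpy 2.4.6, pandas 2.3.3 and scipy 1.17.1. The read limit is at least 10 reads in every library. Depth was 15188765 to 21463842 reads a library.

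Named genes are the 30 of highest mean RPM, the leading members of each list with those of lowest and highest CV, the 10 lowest and 10 highest CVs at 100 RPM or more, and the marker genes. Others, such as those that stood 2-fold apart in 1 library and non-ribosomal genes under rank 30, were named after their values were seen. The lists were chosen with earlier results of these data known, and some were corrected once the files' gene names were seen.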

Additional observations from a re-analysis of the deposited data

How the results depend on the processing

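No paired analysis was possible because only 1 group of libraries was described. Depth limits single genes between 0.1 and 1 RPM, where only 484 of 4307 genes passed the read limit. That limit drops genes with few reads in any library, which lowers the CVs of the genes kept. Their median CV of 23.95%, against 25.8% from counting, therefore cannot show that counting alone explains their spread. For a single gene, 3 libraries give no firm CV.

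A limit of 1 read in total left 14431 genes and one of 100 reads in every library left 2264. The share of the 10 leading genes was 52.7% and that of the 100 leading genes 181% when all transcripts of a gene were summed, since reads shared by isoforms are then counted more than once, and 26.6% and 83.5% of RPM per kb of coding length. The median CV was 43.4% at 1 read in total, 20.3% at 100 reads in every library, 21.98% with TMM and 21.99% with DESeq2 size factors. The biological coefficient of variation was 27.1% at 100 reads in every library and 34.1% with library size only. Genes highest in replicate 1 numbered 2396 with TMM and 2266 with DESeq2 size factors, those in replicate 2 numbered 2213 with DESeq2 size factors, and those in replicate 3 numbered 2286 and 2345. With TMM, an alternative added after seeing the data, genes standing 2-fold apart numbered 7 higher and 51 lower in replicate 1, 1 lower in replicate 2 and 14 higher in replicate 3.

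With 1 library left out in turn, genes past the read limit numbered 6996 to 7175, the 10 leading genes held 16.3% to 17.5% and the 100 leading genes 71.6% to 74.2%, the median CV was 18.8% to 24.2%, lowest without replicate 1, the biological coefficient of variation was 27.9% to 31.5%, lowest without replicate 3, and 135 to 138 genes reached 1000 RPM. Leaving a library out cannot move a family's mean share by as much as the SD over the libraries, so it says nothing of their stability. Of 59 shares, 49 moved by more than that SD per kb of coding length and 37 when all transcripts were summed, and none when the transcript was chosen over all 6 libraries or shares were taken of the reads on kept transcripts. Ranks of the 30 leading genes moved by less than their spread in 76 of 90 values with a library left out. CVs of single genes with TMM were added after seeing the data.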
